A study of Mus musculus with 6 samples.

Results

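S100 proteins are small calcium-binding proteins with a pair of EF-hand loops. Most of them pair up into dimers that open on binding calcium and grip a partner protein. The genes described are S100a1, S100a4, S100a6, S100a8, S100a9, S100a10, S100a13, S100a16 and S100b, and they were followed in mouse ovarian tumours. They were chosen by family, with earlier results of these data known. A set of 10 S100 genes was named, and each had to lie on a probe set that carries 1 gene symbol. This left 9 of the 30142 genes measured. S100a11 was left out because its probe set also carries the predicted genes Gm12854 and Gm5068. All 9 had a single probe set, so no choice between probe sets was needed.

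Inside cells S100 proteins act on the cytoskeleton, on annexins at membranes and on calcium handling, and some are released and act on receptors such as RAGE and TLR4. S100A4 and S100A6 are known for their link to motility and growth of tumour cells. S100A8 and S100A9 form calprotectin, an abundant protein of neutrophils and young monocytes. S100B is best known from glia and Schwann cells and is also made by fat cells.

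ID8-VEGF cells are a mouse ovarian surface epithelial line made to produce vascular endothelial growth factor, and they had been placed beneath the ovarian bursa, the membrane around the ovary. At a late stage 1 primary and 1 metastatic tumour were taken from each of 3 mice, called C1M3, C1M5 and C2M3, and each tumour went onto an array of its own, which gives 3 arrays per group. The mice carried the same cells in both groups, no untreated or tumour-free tissue was analysed here, and the strain, the age, any surgery and the site of each metastatic tumour are not given in the labels. Values are log2 intensities, so that a difference of 1 is a 2-fold difference, and levels are not compared between probe sets. Wherever 3 values of a group are given, they stand in the mouse order C1M3, C1M5, C2M3. The array medians over all genes lay between 4.90 and 5.15. As a guide to dim signal, 1526 olfactory and vomeronasal receptor genes, most of them silent outside sensory organs, had an upper (95th percentile) level of 4.76 to 5.98 depending on the array. Of 12 measured mesothelial and epithelial tumour genes, 9 lay above that level on all 6 arrays.

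Most of these genes lie in a cluster on mouse chromosome 3. In the RefSeq annotation of GRCm38.p6 the stretch from S100a1 to S100a9 holds 12 protein-coding genes, all of the S100 family, 7 of them among the genes described. Their order is S100a1, S100a13, S100a14, S100a16, S100a3, S100a2, S100a4, S100a5, S100a6, S100a7a, S100a8 and S100a9. S100a10 and S100a11 lie further along with 56 protein-coding genes between, and S100b lies on chromosome 10. The sequences below are the 250 bases before the annotated starts of S100a4 and S100a6, whose values ran together across the tumours. They come from RefSeq, build GRCm38.p6, at chr3:90603520-90603769 (plus strand) for S100a4 and chr3:90612644-90612893 (plus strand) for S100a6.
S100a4: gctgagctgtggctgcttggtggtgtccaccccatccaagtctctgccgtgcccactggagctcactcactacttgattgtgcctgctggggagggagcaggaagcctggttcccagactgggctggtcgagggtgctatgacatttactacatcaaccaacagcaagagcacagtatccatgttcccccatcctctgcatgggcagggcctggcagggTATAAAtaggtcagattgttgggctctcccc
S100a6: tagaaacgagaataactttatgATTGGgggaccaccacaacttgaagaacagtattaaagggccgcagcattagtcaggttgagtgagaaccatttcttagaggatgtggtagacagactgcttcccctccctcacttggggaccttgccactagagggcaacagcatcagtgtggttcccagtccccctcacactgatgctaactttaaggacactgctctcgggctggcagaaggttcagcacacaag

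Capitals mark matches to 5 motifs searched on both strands: the TATA box (TATAAA), the GC box (GGGCGG), the CCAAT box (CCAAT), the AP-1 site (TGANTCA) and the E-box CACGTG. None of these motifs overlaps another in the sequences shown. Counted back from the annotated start, S100a4 has TATAAA at -31, and S100a6 has a CCAAT box on the reverse strand at -228. Among 32851 mouse promoter windows of 250 bases, 12.4% hold TATAAA and 33.9% hold CCAAT on either strand. S100a8 also has TATAAA, at -30. These matches describe the letters only.

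For 6 of the 9 S100 genes the mouse held more of the spread than tissue and remainder together. The share of all genes for which it did so was not computed. The mouse accounted for 94.2% of the sum of squares of S100a1, 90.1% of S100a10, 87.7% of S100a4 and 87.2% of S100a6. For S100a13 it was 57.1%, for S100a9 52.1% and for S100b 40.9%, while S100a16 and S100a8 had 1.63% and 0.97%. The share of mice in the degrees of freedom is 40%, the median over all genes was 39.7%, and 46.8% of all genes had more than 40%, against 7 of the 9 S100 genes. With each array centred on its median these figures were 6 of 9 and 35.1% of all genes, and S100b fell below 40%. Since each animal gave 1 tumour of each kind, animal and excised piece cannot be told apart. In bulk tissue, fewer cells of a type and less RNA per cell cannot be told apart either.

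**Figure D1:**
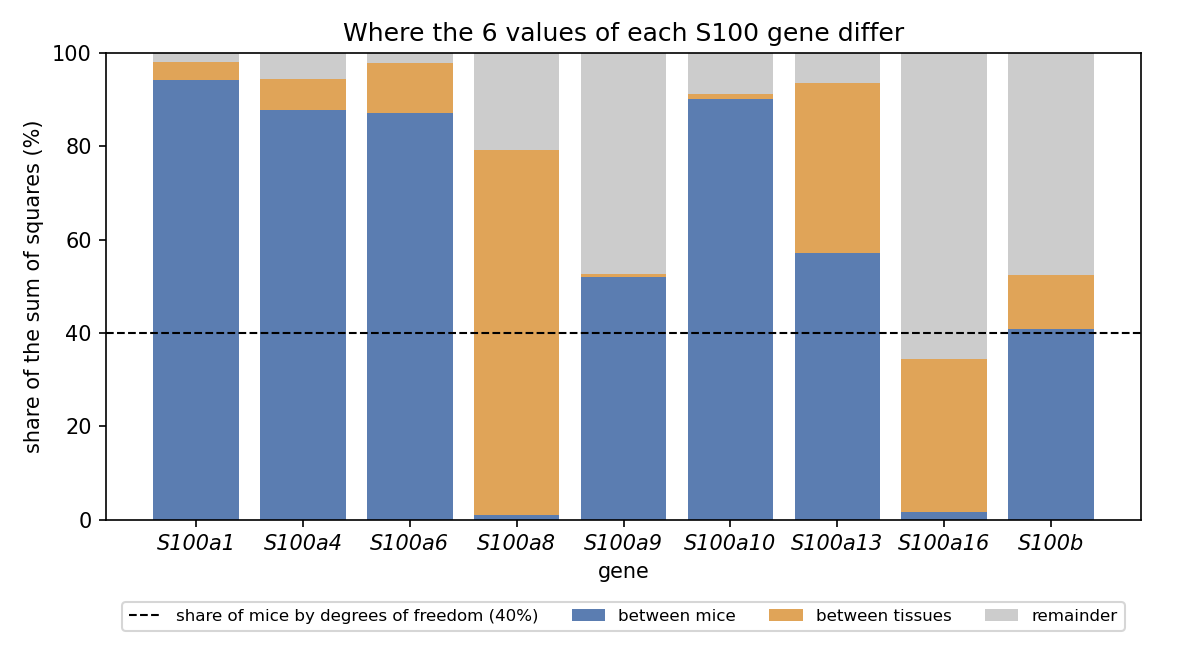
Bars show, for each S100 gene, the share (%) of the sum of squares of its 6 log2 values that lies between mice, between primary and metastatic tumours, and in the remainder; the dashed line is the 40% that mice hold of the degrees of freedom. S100a1, S100a10, S100a4 and S100a6 reach 94.2%, 90.1%, 87.7% and 87.2% between mice, and S100a8 has 78.2% between tissues.

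Metastatic tumours had a higher mean for 7 of the 9 genes, where 55.1% of all genes had one, and the median difference (metastatic minus primary) over the 9 was 0.21, against 0.02 over all genes. No S100 gene passed the test, a limma fit with tissue as its term and Benjamini-Hochberg adjustment over all genes. That fit called 0 of the 30142 genes at an adjusted p under 0.05 (0.0% called), and 1269 (4.21%) at an unadjusted p under 0.05. The smallest adjusted p among the 9 was 0.842. Adding the mouse as a block, which compares the tumours of each animal, also gave 0 calls, and 1485 genes at an unadjusted p under 0.05. The number of higher genes was 4 of 9 when either the C1M3 primary or the C1M5 metastatic tumour was left out, with a median of -0.0043 and -0.018. Centring each array moved the median of all genes by -0.11, from 0.02 to -0.09, and the share of all genes with a higher mean from 55.1% to 30.4%. On that scale 6 of the 9 were higher, with a median of 0.11.

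**Figure D2:**
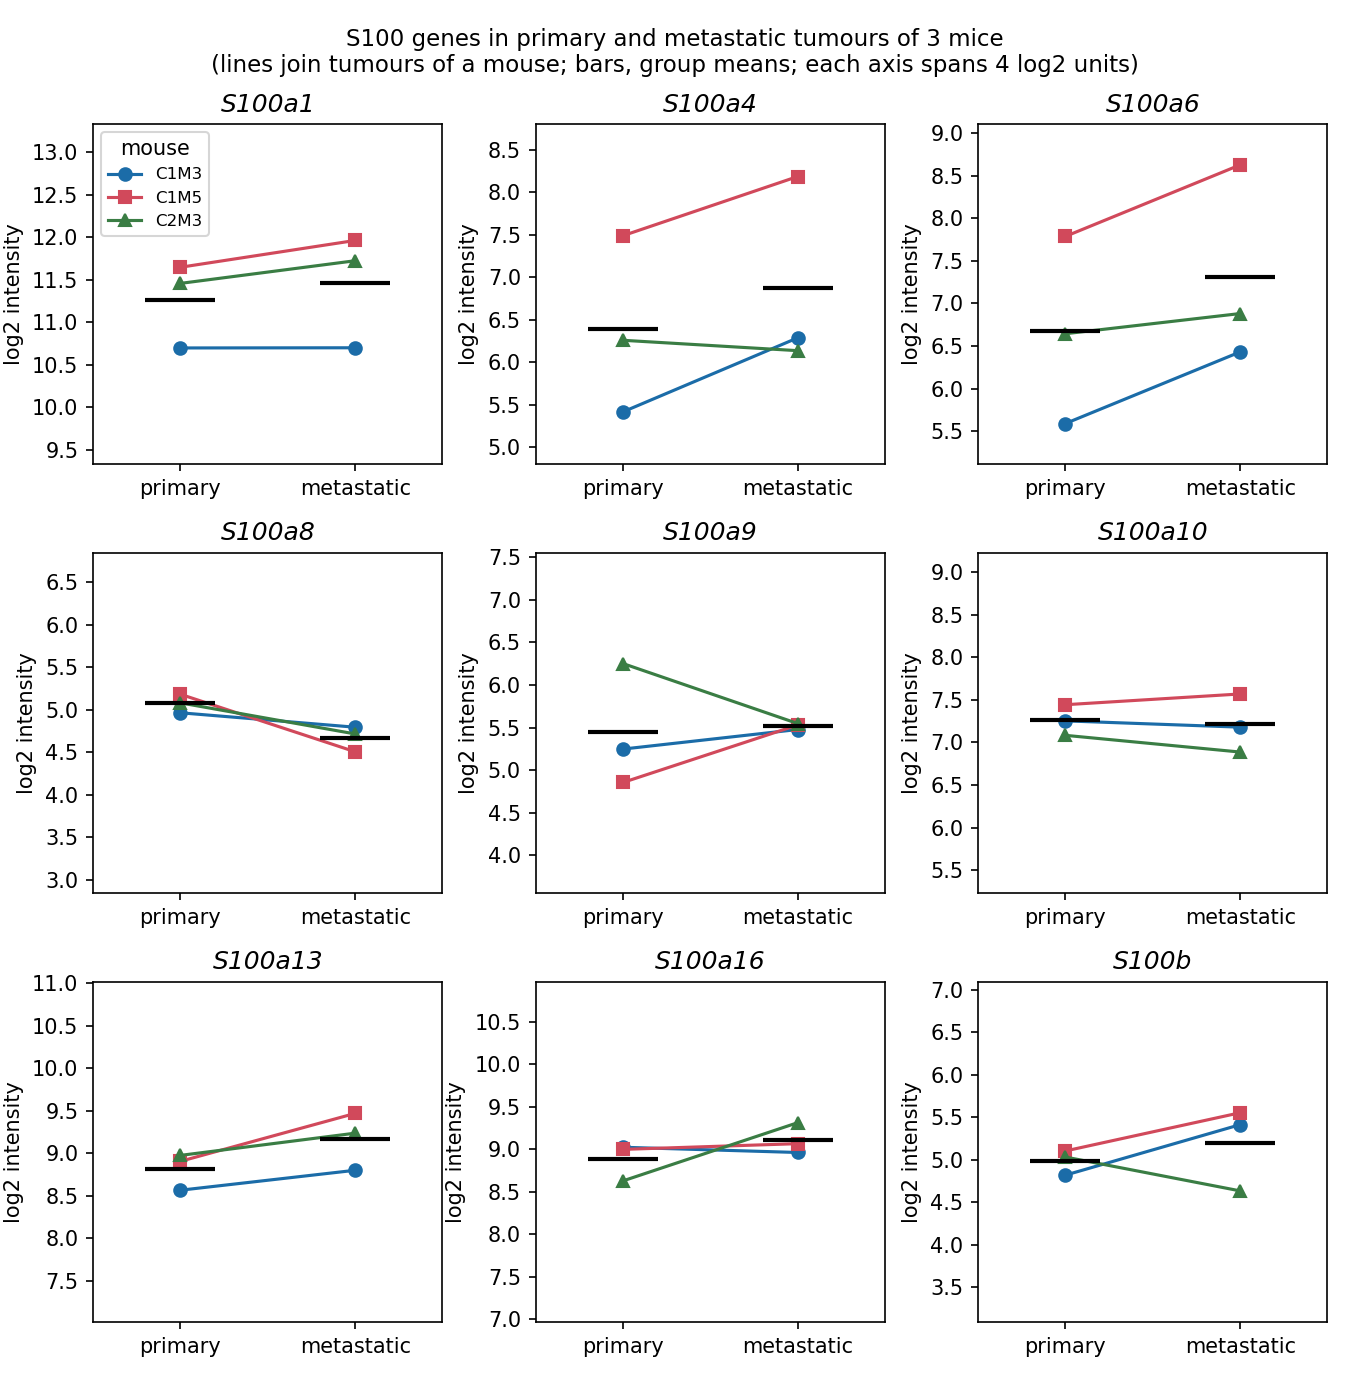
Each panel plots the log2 intensity of a gene in the primary and the metastatic tumour of mice C1M3, C1M5 and C2M3, with lines joining the tumours of a mouse and bars at the group means; every axis spans 4 log2 units. S100a4 and S100a6 are highest in both tumours of C1M5, and S100a8 is the gene whose groups do not overlap.

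S100a4 (Entrez Gene 20198), which encodes a protein that binds non-muscle myosin and is tied to motility, was high in mouse C1M5. Its log2 intensity was 5.42, 7.49 and 6.26 in primary tumours and 6.29, 8.18 and 6.14 in metastatic ones. Both tumours of C1M5 lay above all 4 tumours of the other mice, and the groups overlapped. The metastatic tumour was higher by 0.87 in C1M3 and by 0.70 in C1M5, and it differed by -0.12 in C2M3. S100a4 lay above the upper level of receptor genes on 5 of 6 arrays. In the C1M3 primary tumour it was below that level (5.76), so the difference in C1M3 starts from a dim value. The group means were 6.39 ± 1.04 and 6.87 ± 1.14 (SD, n = 3), a difference of 0.48 (moderated SE 0.80, adjusted p = 0.889), a fold of 1.40. It was -0.0043 with the C1M3 primary tumour left out and -0.18 with the C1M5 metastatic tumour left out.

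S100a6 (Entrez Gene 20200), which encodes calcyclin, a protein of proliferating cells that binds annexins and the Siah-interacting protein Cacybp, was also highest in C1M5. It measured 5.59, 7.79 and 6.64 in primary tumours and 6.43, 8.63 and 6.88 in metastatic ones. The range over the 6 arrays, 3.04, was the widest of the 9 genes. In every mouse the metastatic tumour was above the primary one, by 0.84 in C1M3, 0.84 in C1M5 and 0.24 in C2M3, while the groups as a whole overlapped. With arrays centred the value of C2M3 was -0.0077. Like S100a4, S100a6 was above the receptor level on 5 of 6 arrays and below it (5.76) in the C1M3 primary tumour. The group means were 6.67 ± 1.10 and 7.31 ± 1.16 (SD, n = 3), and their difference of 0.64 had an SE of 0.83 in the fit without the mouse and of 0.17 with the mouse blocked, with adjusted p = 0.859 and 0.841. The unadjusted p of S100a6 was 0.475 without and 0.0322 with the block, and that of S100a13 was 0.157 and 0.0363. An unadjusted p under 0.05 upward in the blocked fit was reached by 2.96% of all genes. Without the metastatic tumour of C1M5 the difference of S100a6 was -0.018, and without the primary tumour of C1M3 it was 0.10.

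S100a4 and S100a6 followed each other across the 6 tumours of 3 mice with r = 0.98 (Spearman's rho 0.77), also 0.98 with each array centred, and with r = 0.88 over the 4 tumours without C1M5. S100a5, which lies between them on the chromosome, did not share that course. It stayed between 3.74 and 4.05, below the upper level of receptor genes on all arrays, with r = -0.21 to S100a4. S100a7a, the next gene after S100a6, had r = 0.89 to S100a6, with values of 4.50 to 5.54 that lay above the receptor level on 1 of 6 arrays. Of the 36 pairs among the 9 genes, S100a4 with S100a6 had the highest Pearson r over the 6 tumours. Next were S100a1 with S100a13 (0.88), S100a1 with S100a6 (0.84) and S100a6 with S100a13 (0.81). Then came S100a4 with S100a10 (0.74), S100a1 with S100a4 (0.73) and S100a10 with S100b (0.71), which lie on different chromosomes. Spearman's rho was higher than for S100a4 with S100a6 in S100a1 with S100a6 and with S100a13 (0.94 each). It was also higher in S100a4 with S100b (0.89) and S100a6 with S100a13 (0.83). Without C1M5, r was higher for S100a13 with S100a6 (0.94) and with S100a1 (0.92). For S100a4 with S100a10 r was -0.51 over the 4 tumours without C1M5. The tumours of 1 mouse share an animal, so these correlations describe the arrays and carry no p.

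**Figure D3:**
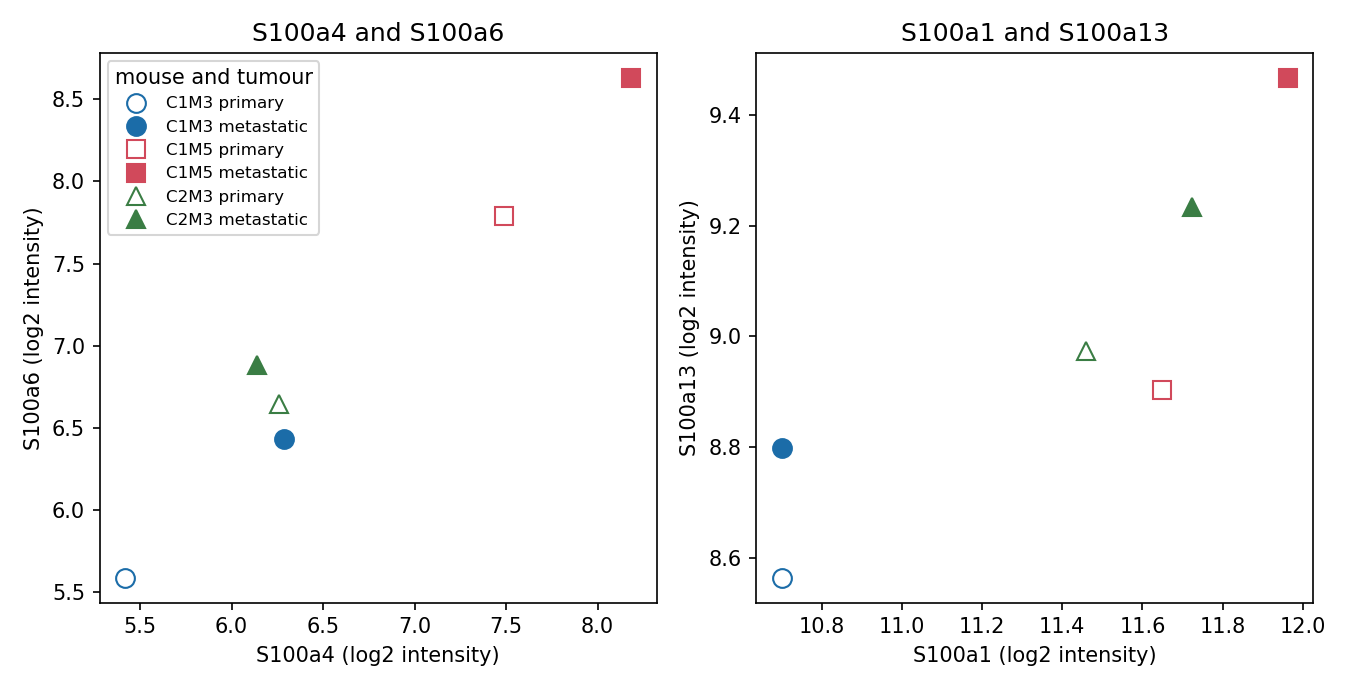
Points are the 6 tumours (open, primary; filled, metastatic; colour and shape, mouse), with the log2 intensity of S100a6 against S100a4 on the left and of S100a13 against S100a1 on the right. Both tumours of C1M5 lie apart at the top for S100a4 and S100a6, and both tumours of C1M3 have the lowest S100a1, near 10.70.

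Genes with the profile most like S100a4, among 880 genes of above-median level that varied by at least 2 log2 units, were Nfe2l3, a transcription factor gene of the NRF family (r = 0.999), Epb41l4a, a band 4.1 family gene (0.986), and Itgb3, the integrin beta-3 gene (0.982). Closest to S100a6 were Nfe2l3 (0.981), S100a4 (0.979) and the protease inhibitor gene Cstb (0.975). Nfe2l3 measured 6.08, 7.88 and 6.73 in primary tumours and 6.77, 8.38 and 6.72 in metastatic ones. It was picked for its r to S100a4, so its high mouse, C1M5, follows from that choice.

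The mean level of mesothelial and epithelial genes, the lineage of the tumour cells, was also highest in both tumours of C1M5. Over the 12 such genes it was 9.40, 10.98 and 9.87 in primary tumours, against 9.43, 11.04 and 9.80 in metastatic ones. It correlated with S100a4 and with S100a6 at r = 0.94 each over the 6 tumours, and r without C1M5 was not computed. Not every gene of the list followed C1M5. Upk1b, Krt8, Krt18 and Krt19 were highest in both its tumours. Wt1 and Lrrn4, named after their values were seen, were highest in the metastatic tumours of C1M3 (11.07) and C2M3 (11.17). Upk1b, a uroplakin gene of mesothelium, ran from 8.22 in the C1M3 primary to 14.6 in the metastatic tumour of C1M5 and had a mean difference of 0.88 (SE 2.01). Krt18, a keratin of simple epithelia, was below its primary level in all 3 metastatic tumours, with a mean difference of -0.85 (SE 0.51, adjusted p = 0.842). For all 9 S100 genes, the list means with an absolute r of at least 0.6 are given, out of 126 such correlations. This limit was chosen after the values were seen. With 6 tumours of 3 mice, unrelated values can also reach it, and how often they do was not computed. S100a4 had S100 binding partners (0.80), Schwann cell and glial genes (0.67), striated muscle genes (-0.61) and ovarian genes (-0.77) beside the mesothelial list. S100a6 had binding partners (0.70), Schwann cell and glial genes (0.77), B cell and plasma cell genes (0.66) and ovarian genes (-0.73). The Schwann and muscle lists were mostly dim: 5 of 9 and 9 of 11 genes lay above the receptor level on no array. The part of cell makeup in the S100a4 and S100a6 values was not tested.

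S100a10 (Entrez Gene 20194) encodes p11, an S100 protein whose calcium loops no longer respond to calcium and which sits in a complex with annexin A2. Its values were 7.25, 7.44 and 7.08 in primary tumours and 7.18, 7.57 and 6.89 in metastatic ones. Mice kept their order in both tissues, with C1M5 highest and C2M3 lowest. From primary to metastatic the mean went from 7.26 ± 0.18 to 7.21 ± 0.34 (SD, n = 3), a difference of -0.05 (SE 0.20, adjusted p = 0.969), and the tumours of a mouse differed by -0.20 to 0.13. Anxa2, the annexin A2 gene, picked here as its partner after its values were seen, ranged from 12.2 in the metastatic tumour of C2M3 to 13.6 in that of C1M5, with a mean difference of -0.13 (SE 0.50) that turned positive in some settings, array weights among them. S100 binding partners (r = 0.83), mesothelial and epithelial genes (0.725) and ovarian genes (-0.79) moved with S100a10, and their part was not tested.

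S100a1 and S100a13 varied together, with r = 0.88 over the 6 tumours and 0.92 without C1M5. S100a1 (Entrez Gene 20193) encodes a regulator of calcium release known from heart and muscle. It measured 10.70, 11.65 and 11.46 in primary tumours and 10.70, 11.96 and 11.72 in metastatic ones. Both tumours of C1M3 were the lowest, and the groups overlapped. The metastatic tumour was higher by 0.002, 0.32 and 0.27 in those mice, a mean of 0.19 (SE 0.43, adjusted p = 0.918), with group means of 11.27 ± 0.50 and 11.46 ± 0.67 (SD, n = 3). Leaving out the C1M3 primary tumour turned this mean to -0.090, and leaving out the C1M5 metastatic tumour turned it to -0.06. None of 11 striated muscle genes lay above the receptor level on all arrays, and 9 lay above it on none. B cell and plasma cell genes (r = 0.94), mesothelial and epithelial genes (0.80), Schwann cell and glial genes (0.80), macrophage genes (0.65) and neutrophil genes (0.64) moved with S100a1. The mean of the first list, over 6 genes, was 4.53, 5.53 and 5.92 in primary tumours and 4.59, 6.04 and 6.11 in metastatic ones, with both C1M3 tumours lowest. Its B cell genes Ms4a1 and Cd79b lay above the receptor level on no array, and its plasma cell genes Mzb1 and Jchain on 4 and 5. The Schwann and neutrophil lists were mostly dim: 5 of 9 and 15 of 21 genes lay above that level on no array. The part of all these lists in the S100a1 values was not tested.

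S100a13 (Entrez Gene 20196) encodes a protein that takes part in the release of fibroblast growth factor 1 and interleukin 1 alpha. It came to 8.56, 8.90 and 8.97 in primary tumours and 8.80, 9.47 and 9.23 in metastatic ones. In each mouse the metastatic tumour was higher, by 0.23, 0.56 and 0.26, and the groups overlapped because the metastatic tumour of C1M3 lay below the primary tumours of C1M5 and C2M3. From primary to metastatic the mean went from 8.81 ± 0.22 to 9.17 ± 0.34 (SD, n = 3), a difference of 0.35 (SE 0.21, or 0.10 with the mouse as a block, adjusted p = 0.842 and 0.841), a fold of 1.28. It stayed between 0.20 and 0.54 when single arrays or mice were left out. B cell and plasma cell genes (r = 0.85), Schwann cell and glial genes (0.79), neutrophil genes (0.72), macrophage genes (0.64) and mesothelial genes (0.62) moved with it, and their part was not tested. Of these lists, the Schwann and neutrophil ones were mostly dim, as given for S100a1. In RefSeq the gene spans of S100a1 and S100a13 overlap by 98 bases on opposite strands, and whether the probes tell the strands apart is not given in the sources used here.

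S100a16 (Entrez Gene 67860), a broadly expressed member of the family, did not follow the mice. It measured 9.02, 8.999 and 8.63 in primary tumours and 8.96, 9.07 and 9.31 in metastatic ones. The tumours of C1M3 and C1M5 differed by -0.06 and 0.07, and those of C2M3 by 0.68. From primary to metastatic the mean went from 8.88 ± 0.22 to 9.11 ± 0.18 (SD, n = 3), a difference of 0.23 (SE 0.15, adjusted p = 0.842), and without the tumours of C2M3 it was 0.003. Schwann cell and glial genes (r = 0.72), other S100 genes (0.64) and adipocyte genes (-0.81) moved with it, and their part was not tested.

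S100a8 (Entrez Gene 20201) and S100a9 (Entrez Gene 20202), the calprotectin genes, were dim, above the upper level of receptor genes on 2 of 6 arrays each. S100a8 measured 4.97, 5.18 and 5.08 in primary tumours and 4.80, 4.51 and 4.72 in metastatic ones. All 3 metastatic values lay below all 3 primary values, a pattern shown by 2.84% of all genes, and none of the other 8 S100 genes had groups that did not overlap (metastatic higher: 4.79% of all genes). With arrays centred S100a8 kept this pattern, as 10.3% of all genes then showed it. The group means were 5.08 ± 0.11 and 4.67 ± 0.15 (SD, n = 3), a difference of -0.40 (SE 0.10, unadjusted p = 0.0107, adjusted p = 0.842). With the mouse blocked the unadjusted p was 0.0512. Without the block, 1.33% of all genes had an unadjusted p under 0.05 in that direction. It stayed between -0.52 and -0.27 when single arrays or mice were left out. Moving with S100a8 were adipocyte genes (r = 0.71), ovarian genes (0.65) and other S100 genes (-0.80). The adipocyte mean ran from 5.94 to 10.72 in primary and from 5.82 to 6.15 in metastatic tumours, and the ovarian mean from 6.37 to 6.94 and from 5.68 to 6.61. Their part in the S100a8 difference was not tested. The upper level of receptor genes was 5.02, 5.68 and 5.98 on the metastatic arrays of C1M3, C1M5 and C2M3. S100a8 was in the range of dim signal on all 3. On the primary arrays of these mice that level was 5.76, 4.86 and 4.76, and S100a8 was above it in C1M5 and C2M3. In C1M3 its difference is one between dim values, and in the other mice it runs from above that level to below it.

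S100a9, whose product pairs with that of S100a8, did not follow it (r = -0.14, 0.10 with arrays centred and 0.56 over the 4 tumours without C1M5). Its values were 5.25, 4.85 and 6.25 in primary tumours and 5.48, 5.53 and 5.55 in metastatic ones. The primary tumour of C2M3 was the highest array, and the metastatic tumours lay close together. Within mice the difference was 0.23, 0.68 and -0.71, with a mean of 0.07 (SE 0.38, adjusted p = 0.982) that turned to -0.04 with arrays centred. The group means were 5.45 ± 0.72 and 5.52 ± 0.04 (SD, n = 3).

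Neutrophil genes were dim as well. Of 21 measured granule and surface genes, 15 lay above the receptor level on no array and none on all 6, and their mean ranged from 4.43 to 4.57 in primary and from 4.53 to 4.64 in metastatic tumours. Ly6g, the antigen that defines mouse neutrophils, named after its values were seen, measured 4.38 to 5.20 and was above that level on no array. Csf3r, the receptor of granulocyte colony-stimulating factor, had the largest difference of this list, 0.55 (SE 0.42). The list mean had r = -0.33 to S100a8 and 0.44 to S100a9 over the 6 tumours. Monocyte and macrophage genes, in contrast, were well measured, with 9 of 16 above the receptor level on all arrays. In all 16 the metastatic mean was higher, by a median of 0.58, where 55.1% of all genes had a higher one. With arrays centred it was higher in 14, by a median of 0.48, where 30.4% of all genes had a higher one. None passed the test. Of the 16, 2 were higher in all 3 mice, near the 11.1% of all genes that were. The list mean was 6.35, 8.39 and 8.98 in primary tumours and 8.17, 8.28 and 9.05 in metastatic ones, with the C1M3 primary tumour lowest. That mean had r = -0.09 to S100a8 and 0.44 to S100a9. T cell genes (0.68) and endothelial genes (0.62) moved with S100a9, and their part was not tested. Among the monocyte and macrophage genes Tyrobp, a signalling adaptor of myeloid cells, differed by 1.29 (SE 1.10), with 3.14, -0.04 and 0.77 within mice. Adgre1, the F4/80 antigen gene, differed by 1.03 (SE 0.90), with 2.36, 0.00 and 0.72 within mice. Without the C1M3 primary tumour these differences were 0.21 and 0.18.

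S100b (Entrez Gene 20203) was above the receptor level on 3 of 6 arrays, the primary ones of C1M5 and C2M3 and the metastatic one of C1M3. It came to 4.82, 5.10 and 5.03 in primary tumours and 5.41, 5.55 and 4.63 in metastatic ones. The metastatic tumours of C1M3 and C1M5 were the highest and that of C2M3 the lowest of the 6 arrays. The values of the C1M5 and C2M3 metastatic tumours lay below the receptor levels of their arrays (5.68 and 5.98). Within mice the difference was 0.59, 0.45 and -0.40, with a mean of 0.21 (SE 0.27, adjusted p = 0.858). The group means were 4.98 ± 0.15 and 5.20 ± 0.49 (SD, n = 3), and the difference was 0.038 without the C1M5 metastatic tumour, 0.026 without both tumours of C1M3 and 0.52 without both of C2M3. Of 9 measured Schwann cell and glial genes, 5 lay above the receptor level on no array, among them Sox10, the lineage factor of Schwann cells, at 4.24 to 4.76. The adipocyte genes, which were high in the primary tumours of C1M5 and C2M3, had r = -0.02 to S100b. S100 binding partners (0.76) and ovarian genes (-0.67) moved with it, and their part was not tested. The resistin gene Retn, a fat cell gene, measured 12.9 and 15.1 in those primary tumours, against 6.18 to 7.16 on the other arrays.

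**Figure D4:**
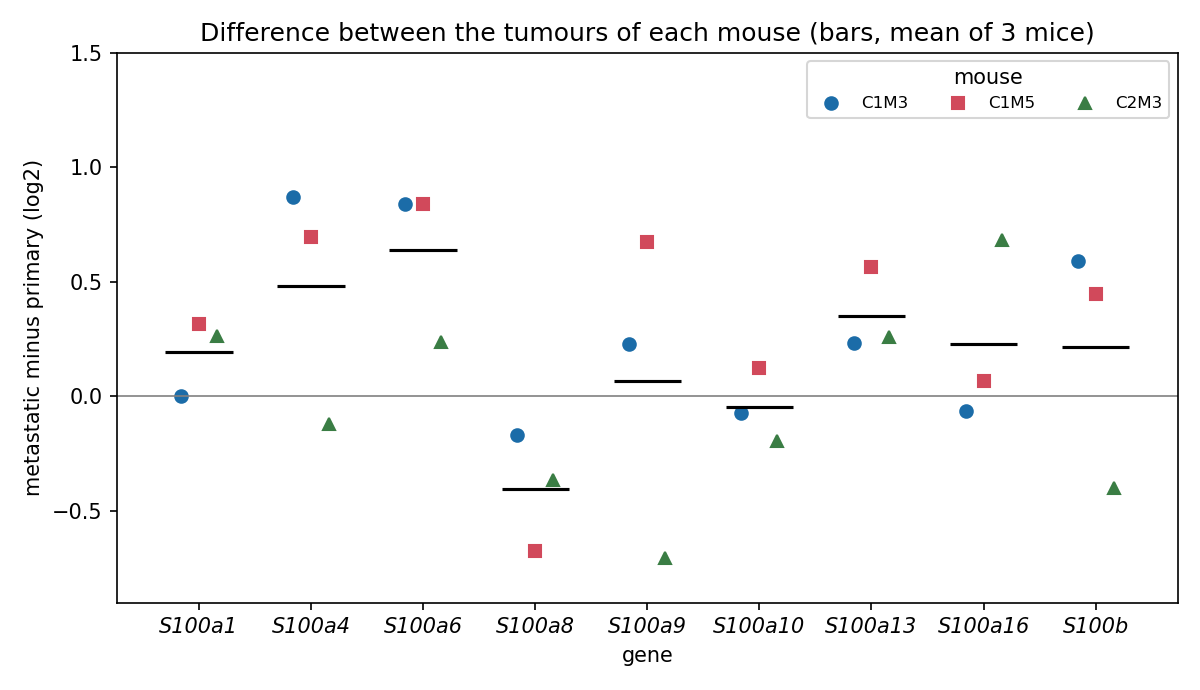
Points are the differences, metastatic minus primary (log2), between the tumours of mice C1M3, C1M5 and C2M3 for each S100 gene, and bars are their means. S100a1, S100a6 and S100a13 are above 0 in all 3 mice, S100a8 is below 0 in all 3 (with arrays centred S100a6 is at -0.0077 in C2M3), and the other 5 genes have points on both sides.

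Across mice, 3 of the 9 genes (S100a1, S100a6 and S100a13) were higher and 1 (S100a8) lower in the metastatic tumour of all 3 animals, where 11.1% and 8.64% of all genes were. With arrays centred these were S100a1 and S100a13, higher, and S100a8, lower, against 5.84% and 19.6% of all genes. A mean difference of 2-fold or more was found in none of the 9 and in 2.18% of all genes.

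Other S100 family genes were mostly dim, with 5 of 8 above the receptor level on no array and none on all 6. Of these 8, 6 had a higher and 2 a lower metastatic mean (median difference 0.13), or 4 a higher one with arrays centred (median 0.02), and none passed the test. The share of all genes with a higher mean was 55.1%, or 30.4% with arrays centred. The list mean used for the correlations also holds S100pbp, which encodes a binding protein of the family and was above the receptor level on all 6 arrays. S100a14, an epithelial S100 gene, measured 4.83, 4.90 and 4.87 in primary tumours and 5.23, 5.12 and 4.98 in metastatic ones. The groups did not overlap, with a mean difference of 0.24 (SE 0.07, adjusted p = 0.842), and 3 of the 6 values were above the receptor level. They overlapped with arrays centred. The means of S100a7l2, S100a2 and S100a7a differed by 0.47 (SE 0.21), 0.39 (SE 0.15) and 0.28 (SE 0.31). These 4 were named for the largest differences of the list, which favours agreement between mice. All 4 were higher in the metastatic tumour of each mouse, where 11.1% of all genes were. With arrays centred S100a2 and S100a7l2 were, where 5.84% of all genes were. Both lay above the receptor level on no array. From primary to metastatic, the upper level of receptor genes was higher in C1M5 (4.86 and 5.68) and C2M3 (4.76 and 5.98) and lower in C1M3 (5.76 and 5.02). Its part in the dim S100 values was not tested.

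Partners and receptors of S100 proteins did not pass the test either. Their counts stand beside 55.1% of all genes with a higher mean, or 30.4% with arrays centred. Of 14 measured annexins and other binding partners, 12 had a higher and 2 a lower metastatic mean (median difference 0.06), but with arrays centred 6 had a higher one (median -0.05). Anxa1, the gene of annexin A1, measured 9.44, 11.57 and 9.72 in primary tumours and 10.86, 12.01 and 10.13 in metastatic ones. It was highest in both tumours of C1M5, as S100a4 and S100a6 were, and higher in the metastatic tumour of each mouse, with a mean difference of 0.76 (SE 0.77, adjusted p = 0.842). That difference was 0.25 without the C1M5 metastatic and 1.42 without the C1M5 primary tumour. Of 12 genes for receptors of released S100 proteins, 8 had a higher and 4 a lower mean, with a median of 0.03, but with arrays centred 4 had a higher one (median -0.07). The scavenger receptor gene Cd36, also a fat cell gene, had the largest difference, -3.25 (SE 2.27), with 1.52 in C1M3, -4.10 in C1M5 and -7.15 in C2M3. Ly96, which encodes MD-2, the partner of TLR4, measured 5.55, 5.96 and 6.29 in the primary tumours and 6.44, 6.46 and 6.46 in the metastatic ones. Its groups did not overlap, with a mean difference of 0.52 (SE 0.19, unadjusted p = 0.0442, adjusted p = 0.842). They overlapped with arrays centred.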

How the data were processed

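Total RNA of 6 fresh frozen tumours was labelled with biotin and hybridised to 1 array each, per the labels. The authors deposited log2 values per probe set. RMA and the Transcriptome Analysis Console are listed, with no version, per the submitters' processing notes, and the genome build of the array is not given in the sources used here. Groups came from the tissue label and mice from the donor label. For the primary tumour of C2M3 the source name reads C2M2, and the title and donor label were followed.

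Of 65956 non-control probe sets, 30604 carried 1 gene symbol, 2146 several and 33206 none. Symbols of 827 were updated through the Entrez identifier with the RefSeq table of GRCm38.p6, which holds all 10 S100 genes named. Per gene the brightest probe set was kept, giving 30142 genes, with no filter on dim ones.

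Differences between metastatic and primary tumours were fitted by limma 3.58.1, run in R 4.3.3 (lmFit and eBayes, tissue as the only term, two-sided, Benjamini-Hochberg adjustment over all genes, threshold 0.05). SE is the moderated standard error. The fit was tested on simulated data. An alternative added the mouse as a block. Tumours of a mouse share the animal, per the donor label, and their deviations from group means correlated at r = -0.05, 0.35 and 0.07 in C1M3, C1M5 and C2M3. Other alternatives were array weights, median centring, a filter on dim genes, the mean of probe sets, a trended and robust prior, and leaving out arrays and mice. The members, the 14 gene lists and the tests were chosen with earlier results of these data known. Named genes of a list were taken from the up to 4 with the largest difference between group means. For S100a4 and S100a6, the genes with a range of at least 2, the 3 genes of highest r were named. Promoter windows were found in RefSeq for 9 of the 10 S100 genes.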

Additional observations from a re-analysis of the deposited data

How the results depend on the processing

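The number of genes past the threshold was 0 under all 15 alternatives. At an unadjusted p under 0.05 in limma there were 679 to 4091 of 30142 genes, and 597 of 15071 under the filter on dim genes. The mouse as a replicate block called 0 genes too. In this balanced design it leaves each difference, and so the median of the S100 genes (0.21), as it is and alters the errors only. Leaving out single arrays or both tumours of a mouse gave 4 to 8 higher genes of 9 and a median of -0.018 to 0.40, with 4 reached without the C1M3 primary or the C1M5 metastatic tumour. Over the same settings the difference ranged from -0.090 to 0.58 for S100a1, from -0.18 to 1.03 for S100a4, from -0.018 to 1.20 for S100a6, from -0.24 to 0.47 for S100a9, from -0.23 to 0.11 for S100a10, from -0.48 to 0.26 for Anxa2, from -0.82 to 2.20 for Upk1b and from -0.16 to 0.28 for Ly6g. Each of these ranges holds both signs. S100a8, S100a13, S100a16 and S100b kept their sign where tested, with S100a16 at 0.0029 to 0.38 and S100b at 0.026 to 0.52. Ranges without a change of sign were 0.25 to 1.42 for Anxa1, 0.21 to 2.06 for Tyrobp, 0.18 to 1.65 for Adgre1, 0.13 to 0.90 for Csf3r, 0.037 to 0.50 for S100a7a and -1.33 to -0.45 for Krt18. With arrays centred S100a9 was at -0.039 and Ly6g at -0.074. Within-mouse signs and list counts on the centred scale were added after the data were seen. Array weights gave 0.027 for Anxa2 and -0.14 for Upk1b. S100a8 lies below the median level and has no value under the filter on dim genes. The count of genes with over 40% between mice was added after the data were seen. The mean of probe sets cannot change a value of the 9 genes, which have 1 probe set each. The number of arrays limits the precision, and S100a8, S100a9 and S100b lie near the level of dim signal. In the C1M3 primary tumour S100a4 and S100a6 do so too.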

Other observations

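Counts of cell type genes, metastatic against primary, are given as values, with the count on centred arrays beside each. None of these genes passed limma's test. Over all genes 55.1% had a higher metastatic mean, and 30.4% with arrays centred, so a lower count on centred arrays goes with the scale. Adipocyte genes had a higher metastatic mean in 0 of 12 on both scales, with a median difference of -2.00. Endothelial genes were higher in 2 of 8 (median -0.53) and in 1 with arrays centred. Ovarian genes were higher in 2 of 9 (median -0.31) and in 1 with arrays centred. Fibroblast genes were higher in 5 of 11 on both scales. Mesothelial and epithelial genes went from 7 of 12 to 5 with arrays centred, and T cell genes from 5 of 7 (median 0.10) to 3 (median -0.01). B cell and plasma cell genes were higher in 5 of 6 on both scales, with a median of 0.20 and 0.09. Schwann cell and glial genes went from 7 of 9 to 2, striated muscle genes from 6 of 11 to 1, and neutrophil genes from 11 of 21 to 6. The genes that flank the chromosome 3 cluster varied less than S100a1 did: Snapin measured 7.83 to 8.21, Chtop 10.17 to 10.57 and Pglyrp4 3.97 to 4.12.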
